A study of Mus musculus with 6 samples.

Results

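The 4 tryptase genes of the mouse tryptase locus, Tpsab1, Tpsb2, Tpsg1 and Prss34, and the 14 deposited transcripts paired with them were examined in bone marrow-derived mast cells (BMMCs). They were chosen by gene symbol after the RefSeq accession of every transcript was paired with a gene, and are 4 of 35297 genes and 14 of 129698 transcripts. Bone marrow came from untreated wild type mice of the strains BALB/c and C57BL/6. It was cultured with stem cell factor, TGF-β1, IL-9 and IL-3, and RNA of day 20 was sequenced in 3 libraries per strain (S9, S10 and S11 from BALB/c, S12, S13 and S14 from C57BL/6). Both strains were cultured alike, no allele was engineered, and the libraries of a strain are described as biological replicates. The age of the marrow donors, and whether each library came from a separate mouse, are not given in the sources used here, so the p-values measure the spread between these libraries. Libraries held between 28273365 and 37100869 reads on genes. All 8 mast cell markers had reads in every library, among them Kit and Fcer1a, and their summed level was 27294 to 29928 CPM (counts scaled to the library size) in BALB/c and 26428 to 27833 CPM in C57BL/6. The 3 T cell markers had 0 reads, and no neutrophil or eosinophil marker exceeded 15 reads in a library.

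Tryptases are trypsin-like serine proteases that mast cells store in their granules, bound to the heparin chains of serglycin, and release on activation. Tpsab1 encodes mouse mast cell protease 7 and Tpsb2 mouse mast cell protease 6, both soluble granule tryptases that assemble into tetramers. Tpsg1 encodes the gamma tryptase, which stays anchored in the membrane, and Prss34 encodes mouse mast cell protease 11, a tryptase described in basophils and mast cells. C57BL/6 mice are known to carry a change at a splice donor of Tpsab1 and to lack its protein. The comparison asks how the tryptase transcripts of cultured mast cells differ between the strains.

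In GRCm39 the 4 genes lie on chromosome 17 within 76050 bases, and GENCODE annotates each as protein coding. Prss34 spans chr17:25517368-25519142 on the forward strand, Tpsab1 chr17:25562212-25564541 on the reverse strand, Tpsb2 chr17:25585170-25588079 on the forward strand and Tpsg1 chr17:25588235-25593417 on the forward strand. Between Tpsb2 and Tpsg1 lie only 155 bases, and between Tpsab1 and Tpsb2 20628 bases with no annotated gene. Between Prss34 and Tpsab1 lie 43069 bases, which hold Prss28 and Prss29 among 5 annotated genes. The coding sequences of Tpsab1 and Tpsb2 were 67.2% identical, and the other 5 pairs between 47.9% and 54.5%. These percentages are over all columns of a global alignment, so gaps count as differences. The Tpsab1 and Tpsb2 sequences compared were 930 and 828 bases long. Over words of 31 bases, Tpsab1 and Tpsb2 shared 9 words, 0.389% of those of Tpsab1 and 0.369% of those of Tpsb2. No other pair shared any, and no gene shared 25% of its words with a tryptase.

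The splice donor of Tpsab1 and that of the matching exon of Tpsb2 are shown because the record of Tpsab1 turns on them. The sequences come from the GRCm39 genome, which is of C57BL/6 mice, and no BALB/c sequence was used here. Each line holds a coding exon of 166 bases and the first 10 bases of the intron after it, exon 2 of model Tpsab1-202 (chr17:25564014-25564189, reverse strand) and exon 3 of model Tpsb2-202 (chr17:25585734-25585909, forward strand). Capitals mark the first 2 bases of the intron and an earlier GT after base 68, which other GENCODE models use as the donor.
Tpsab1 exon 2: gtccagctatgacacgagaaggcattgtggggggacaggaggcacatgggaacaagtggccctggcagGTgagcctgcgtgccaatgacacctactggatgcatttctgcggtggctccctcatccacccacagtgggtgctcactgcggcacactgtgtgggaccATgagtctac
Tpsb2 exon 3: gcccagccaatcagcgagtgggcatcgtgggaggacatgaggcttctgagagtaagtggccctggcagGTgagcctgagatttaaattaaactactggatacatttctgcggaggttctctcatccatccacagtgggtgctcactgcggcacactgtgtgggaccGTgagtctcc

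The exons were identical at 133 of 166 bases (80.1%) and the intron bases at 8 of 10. The intron of Tpsb2 starts with GT and that of Tpsab1 with AT, the change G167A when positions are counted from the first base of the exon and the base of Tpsb2 is given first. Of 15316 introns of protein coding genes on chromosome 17, 15134 (98.8%) start with GT and 8 (0.0522%) with AT. The other introns of Tpsab1-202, and all introns of Tpsb2-202, Tpsg1-201 and Prss34-201, start with GT. For each gene a GENCODE model annotated as a target of nonsense-mediated decay ends the exon at base 68 and leaves out 98 bases. The only transcript paired with Tpsab1 is NR_033521.1, a noncoding record of 1093 bases, which the RefSeq table lists as a transcribed pseudogene. Its gene span in that table exceeds its length by 1225 bases, and the model with the shortened exon is the only one of 8 GENCODE models whose introns sum to that length. All reads given here for Tpsab1 were thus counted on 1 noncoding record, in BALB/c as in C57BL/6, and whether any of the 23258 transcripts paired with no gene belongs to Tpsab1 was not tested. How far reads of BALB/c RNA with a longer exon were counted there was not tested. All 13 records of the other genes are coding, so the noncoding share was 100% for Tpsab1 and 0% for the others in every library by annotation alone.

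In BALB/c BMMCs Tpsab1 was by far the most abundant tryptase transcript, and in C57BL/6 BMMCs Tpsb2 led, followed by Tpsg1, with little Tpsab1. Levels are given as TPM, which are corrected for transcript length and sum to one total per library, so that genes can be compared. All 4 genes passed the test, 3 higher and 1 lower in C57BL/6, in a comparison where 13.3% of 12461 genes tested were called (7.73% higher and 5.54% lower). A gene was called at an adjusted p under 0.05 and a change above 2-fold by edgeR. In none of the 4 genes did libraries of the strains overlap, as in 61.9% of all genes tested.

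Tpsab1 stood at 12034, 9039 and 8348 TPM in S9, S10 and S11 and at 68.9, 67.7 and 62.5 TPM in S12, S13 and S14. It ranked 7 among all genes in each BALB/c library and between 1424 and 1606 in the C57BL/6 libraries. The mean was 9807 ± 1960 TPM (SD, n = 3) in BALB/c and 66.4 ± 3.43 TPM (SD, n = 3) in C57BL/6, 148-fold higher in BALB/c. On the log2 scale the change from BALB/c to C57BL/6 was -7.02 ± 0.14 (SE, edgeR adjusted p = 1.77e-09). Tpsab1 was still read in C57BL/6, with 1579, 1369 and 1609 estimated reads in S12, S13 and S14 against 243316, 173518 and 205488 in S9, S10 and S11. Whether any of these were reads of Tpsb2 assigned to the Tpsab1 record was not tested. Since RNA of whole cultures was measured, fewer cells with a transcript and less of it per cell cannot be told apart, here and below.

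Tpsb2 went the other way. It stood at 1302, 1773 and 1769 TPM in S9, S10 and S11 and at 7630, 6992 and 6663 TPM in S12, S13 and S14. The lowest C57BL/6 library lay well above the highest BALB/c library, and its rank among genes moved from between 74 and 107 to between 8 and 10. The mean rose 4.39-fold, from 1615 ± 271 to 7095 ± 491 TPM (SD, n = 3 each), with a log2 fold change of 2.32 ± 0.12 (SE, edgeR adjusted p = 5.16e-07). Within BALB/c, S9 held the highest Tpsab1 and the lowest Tpsb2 level.

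Tpsg1 had in BALB/c about the level that Tpsab1 had in C57BL/6. It stood at 74.7, 62.9 and 64.0 TPM in S9, S10 and S11 and at 2023, 2153 and 2105 TPM in S12, S13 and S14. The mean was 67.2 ± 6.53 TPM in BALB/c and 2094 ± 65.7 TPM in C57BL/6 (SD, n = 3 each), 31.2-fold higher in C57BL/6. The log2 fold change was 5.15 ± 0.07 (SE, edgeR adjusted p = 2.23e-10), the smallest error of the 4 genes.

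Prss34 was the rarest tryptase in both strains. Its reads numbered 1, 8 and 2 in S9, S10 and S11 and 213, 192 and 224 in S12, S13 and S14, or 0.0592, 0.498 and 0.0716 TPM against 8.20, 8.36 and 8.44 TPM. The C57BL/6 libraries were nearly alike, while the BALB/c libraries rested on a few reads. The log2 fold change was 5.86 ± 0.35 (SE, edgeR adjusted p = 1.46e-06), and 7.15 without S10, which held most of the BALB/c reads. From the summed reads, 11 in BALB/c and 629 in C57BL/6, the level was 60.1-fold higher, with an exact 95% interval of 33.4 to 121 that covers counting error only. Basophil markers were compared because Prss34 is also described in basophils. All 6 were read in every library, their summed level was 405 to 417 CPM in BALB/c and 495 to 505 CPM in C57BL/6, and 2 of 6 rose, where 7.73% of all genes tested were called higher (Mcpt8, a basophil granule protease, with a log2 fold change of 1.12, and Cebpa with 6.53). Of the other 4, Cd200r3, the largest part of the sum, stood at -0.07, Il18r1 at -0.54, Itga2 at 0.15 and Ms4a3 at 0.99, and Mcpt8 alone went from a mean of 83.9 to 183 CPM, so the rise of the sum was mostly that of Mcpt8. With plain library sizes Mcpt8 was no longer called, and 1 of 6 rose. Of 6 macrophage markers only Adgre1 had enough reads to be tested and rose by 4.93 on the log2 scale, while Csf1r, C1qa and C1qb had 0 reads. The sum of all 6 was 0 to 0.502 CPM in BALB/c and 9.63 to 10.3 CPM in C57BL/6, nearly all of it Adgre1 (a mean of 9.91 CPM in C57BL/6). The part of either list in the Prss34 result was not tested.

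**Figure D1:**
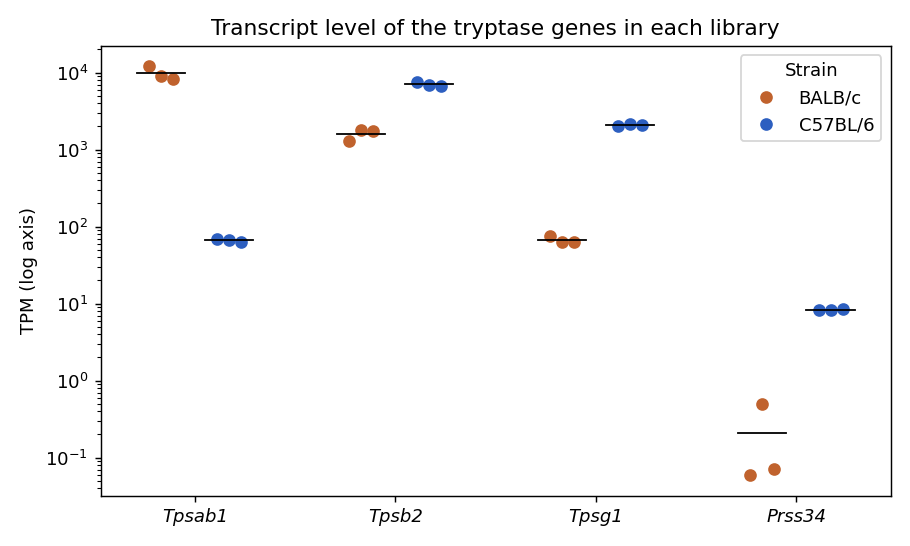
Level of each tryptase gene in TPM on a log axis, with a point per library, BALB/c in orange and C57BL/6 in blue, and black lines at the means. Tpsab1 drops from 9807 to 66.4 TPM between the strains while Tpsb2, Tpsg1 and Prss34 stand higher in all 3 C57BL/6 libraries.

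The order of the 4 genes changed with the strain. In each BALB/c library Tpsab1 was followed by Tpsb2, Tpsg1 and Prss34, and in each C57BL/6 library Tpsb2 was followed by Tpsg1, Tpsab1 and Prss34. Neighbours in either order did not overlap between the libraries of a strain. Tpsab1 exceeded Tpsb2 by 9.25, 5.10 and 4.72 times in S9, S10 and S11, and reached 0.903%, 0.968% and 0.937% of the Tpsb2 level in S12, S13 and S14. The ratio of Tpsb2 to Tpsg1 was 17.4, 28.2 and 27.6 in S9, S10 and S11 and 3.77, 3.25 and 3.16 in S12, S13 and S14. Tpsg1 thus gained on Tpsb2 in every C57BL/6 library.

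The sum of the 4 genes differed far less than any of them. It was 13411, 10875 and 10181 TPM in S9, S10 and S11 and 9730, 9221 and 8839 TPM in S12, S13 and S14. The mean was 11489 ± 1700 TPM in BALB/c and 9264 ± 447 TPM in C57BL/6, 1.24-fold higher in BALB/c. In TPM the libraries did not overlap, and the exact two-sided permutation test gave p = 0.1, the smallest value that 3 against 3 libraries allow. In CPM of the summed reads, which use TMM-corrected library sizes, they did overlap, with 8504, 6990 and 6651 CPM in S9, S10 and S11 against 6925, 6849 and 6384 CPM in S12, S13 and S14, 1.10-fold higher in BALB/c (exact two-sided permutation test, p = 0.4). The log2 ratio of C57BL/6 to BALB/c was -0.30 in TPM, -0.18 in TPM without S9 and -0.13 in CPM. The size of the difference in the summed level thus depended on the scale and on S9, and whether the libraries overlapped depended on the scale. The tryptases took between 0.697% and 0.894% of the reads on genes in BALB/c and between 0.609% and 0.664% in C57BL/6.

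Within this sum Tpsab1 made up 89.7%, 83.1% and 82.0% in S9, S10 and S11 and 0.708%, 0.734% and 0.707% in S12, S13 and S14. Tpsb2 made up 9.71%, 16.3% and 17.4% in S9, S10 and S11 and 78.4%, 75.8% and 75.4% in S12, S13 and S14. Tpsg1 held 0.588% ± 0.0367 (SD, n = 3) of the sum in BALB/c and 22.7% ± 1.63 (SD, n = 3) in C57BL/6. Prss34 stayed at or under 0.0955% in every library. Each of these shares had p = 0.1 by the exact two-sided permutation test. Counting only the genes with coding records, which leaves out Tpsab1, the sum was 1376, 1837 and 1833 TPM in S9, S10 and S11 and 9661, 9154 and 8777 TPM in S12, S13 and S14. On these records alone the C57BL/6 level was 5.47-fold higher (exact two-sided permutation test, p = 0.1), so the direction of the difference in TPM turned on the single noncoding record of Tpsab1.

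**Figure D2:**
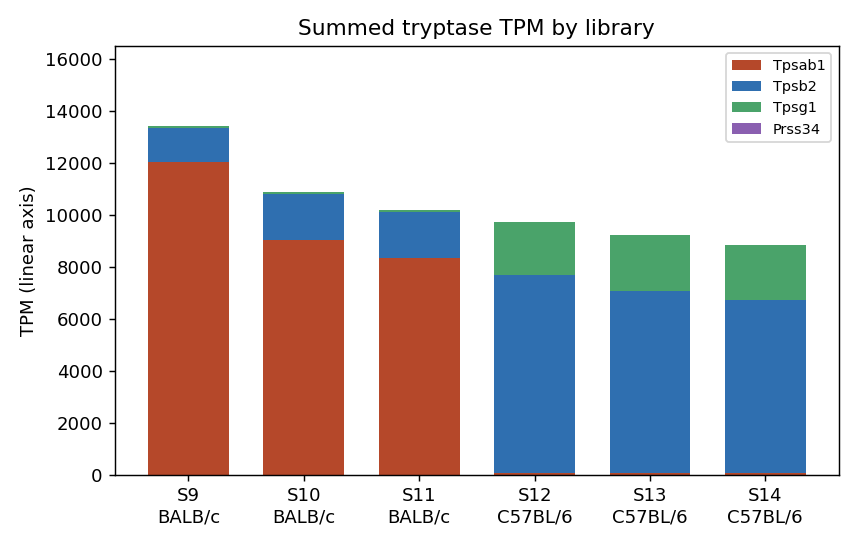
Summed TPM of the 4 tryptase genes in each library on a linear axis from 0, with the segments of a bar giving the genes. The bars run from 8839 to 13411 TPM; Tpsab1 fills most of each BALB/c bar and Tpsb2 most of each C57BL/6 bar, while Prss34 is too low to be seen.

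Of the 14 transcripts, 13 passed the filter on low counts and all 13 were called by edgeR, 12 higher and 1 lower in C57BL/6, where 6.32% of 31918 transcripts were called (3.64% higher and 2.68% lower). The transcripts of a gene share most of their sequence, and Salmon splits reads between them by estimate, so they are not separate observations of a gene. Reads of both strains were assigned to the same set of records. Whether sequence differences of BALB/c lowered the reads of a gene or record, or moved reads between records, was not tested. The 1 lower transcript was the single record of Tpsab1 (log2 fold change -7.04 ± 0.18 SE, adjusted p = 8.17e-05).

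All 3 Tpsb2 transcripts were higher in C57BL/6, by unequal amounts. The curated record NM_010781.3 rose by a log2 fold change of 2.24 ± 0.15 (SE), the predicted record XM_006523740.3 by 4.52 ± 0.16 and the predicted record XM_030249525.1 by 1.17 ± 0.16. The estimated reads of XM_006523740.3 were 484, 505 and 814 in S9, S10 and S11 and 14121, 11485 and 13663 in S12, S13 and S14. Its share of the Tpsb2 reads was 1.86%, 1.50% and 1.89% in BALB/c, against 8.11%, 8.14% and 7.98% for C57BL/6. NM_010781.3 held between 93.4% and 94.4% in BALB/c and between 89.7% and 90.1% in C57BL/6, and XM_030249525.1 fell from 4.44% ± 0.303 to 2.02% ± 0.142 (SD, n = 3 each). The main transcript of Tpsb2 was therefore the same in both strains.

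All 8 Tpsg1 transcripts were higher in C57BL/6, and their log2 fold changes ran from 2.79 to 9.61. The most abundant, NM_001357726.1, stood at 33.8, 24.5 and 20.4 TPM in S9, S10 and S11 and at 1274, 1338 and 1322 TPM in S12, S13 and S14 (log2 fold change 5.81 ± 0.20 SE, edgeR adjusted p = 0.000157). Its share of the Tpsg1 reads was 43.4%, 37.5% and 30.9% in BALB/c, against 60.8%, 59.7% and 60.5% for C57BL/6. XM_006524359.3 held 25.9%, 35.5% and 28.4% in BALB/c, against 9.69%, 10.5% and 10.2% for C57BL/6. XM_006524364.1, the shortest record at 805 bases, held 9.66%, 12.6% and 15.1% in BALB/c, against 2.63%, 2.23% and 2.51% for C57BL/6. By edgeR these 2 transcripts were still higher in C57BL/6, by log2 fold changes of 3.58 and 2.79, so their smaller shares came with higher levels.

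A pair of predicted Tpsg1 records had next to no reads in BALB/c. XM_006524363.1 had 5.35, 0 and 4.86 estimated reads in S9, S10 and S11 and 2367, 2502 and 2889 in S12, S13 and S14. XM_006524360.1 had 4.03, 0 and 0 reads in S9, S10 and S11 and 913, 1016 and 1131 in S12, S13 and S14. Their fitted log2 fold changes of 9.61 and 9.50 rest on these few reads, and that of XM_006524360.1 became 13.04 without S9. With limma on log2(TPM + 1), a scale that shrinks low values, they were 6.71 for XM_006524363.1 and 5.18 for XM_006524360.1. XM_006524361.1 held 3.32% ± 0.889 of the Tpsg1 reads in BALB/c and 7.49% ± 0.173 in C57BL/6 (SD, n = 3 each). For NM_012034.3 and XM_006524358.3 the shares overlapped between the strains, at means of 14.6% and 10.1% for the former and 2.13% and 1.77% for the latter.

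Among the 11 transcripts of Tpsb2 and Tpsg1, the shares of 9 did not overlap between the strains, against 15.5% of 30002 transcripts with a share to compare in all genes. Of the 9, NM_001357726.1 (23.1 points higher in C57BL/6) and XM_006524359.3 (a difference of -19.8 points) also passed a difference in mean share of 10 percentage points, as did 5.04% of all these transcripts, and each of the 9 shares had p = 0.1 by the exact two-sided permutation test. The depth differed between strains, with 1183 to 1534 Tpsg1 reads in a BALB/c library and 42761 to 53109 in a C57BL/6 library, and the BALB/c shares spread more. The 30002 transcripts include those of genes with fewer reads, down to a minimum of 10 in every library. The 15.5% is thus not a share at like depth. Shares within a gene also depend on each other.

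**Figure D3:**
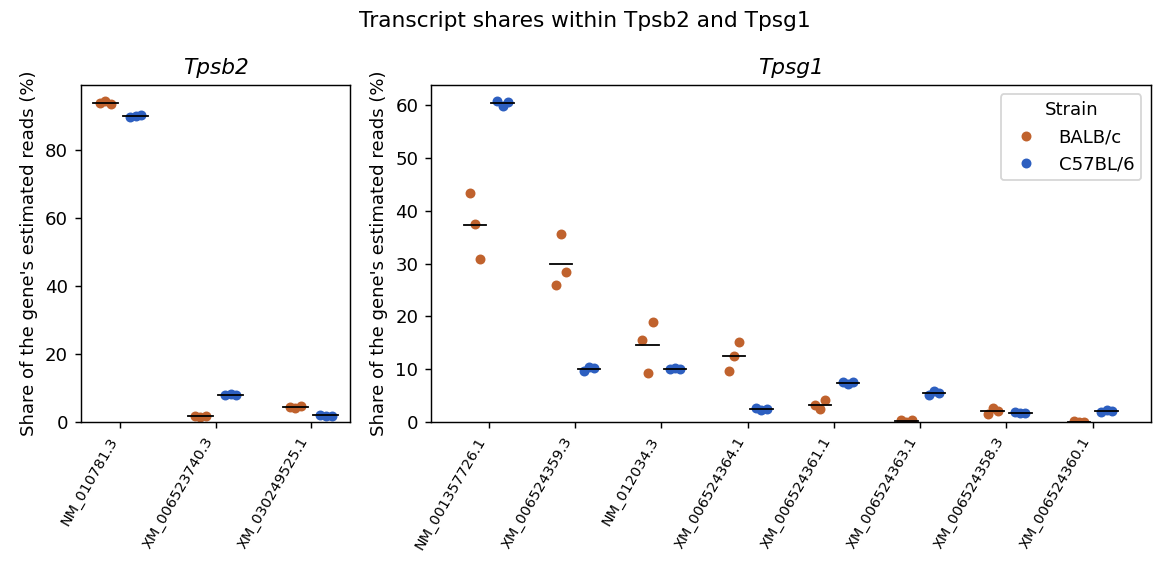
Share of the estimated reads of Tpsb2 (left) and Tpsg1 (right) on each transcript in percent, with a point per library, BALB/c in orange and C57BL/6 in blue, and black lines at the means. NM_010781.3 leads Tpsb2 in both strains, and NM_001357726.1 rises from a mean of 37.3% to 60.3% of Tpsg1.

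Prss34 has 2 records. NM_178372.2 had 0, 0 and 2 reads in S9, S10 and S11 and 213, 192 and 162 in S12, S13 and S14. It was called higher (log2 fold change 8.04 ± 1.20 SE, edgeR adjusted p = 0.0119), and not without S12 (adjusted p = 0.0525) or without S13 (adjusted p = 0.0534). Its fitted change was 10.6 without S11, when the BALB/c libraries are all at 0, and 3.01 with limma on log2(TPM + 1), a scale that shrinks low values. XM_011246499.1 held all 8 reads of S10 and the 1 read of S9, 62.5 estimated reads of S14 and 0 in the other 3 libraries, and was not tested. NM_178372.2 thus held all Prss34 reads in S12 and S13 and 72.1% of them in S14.

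**Figure D4:**
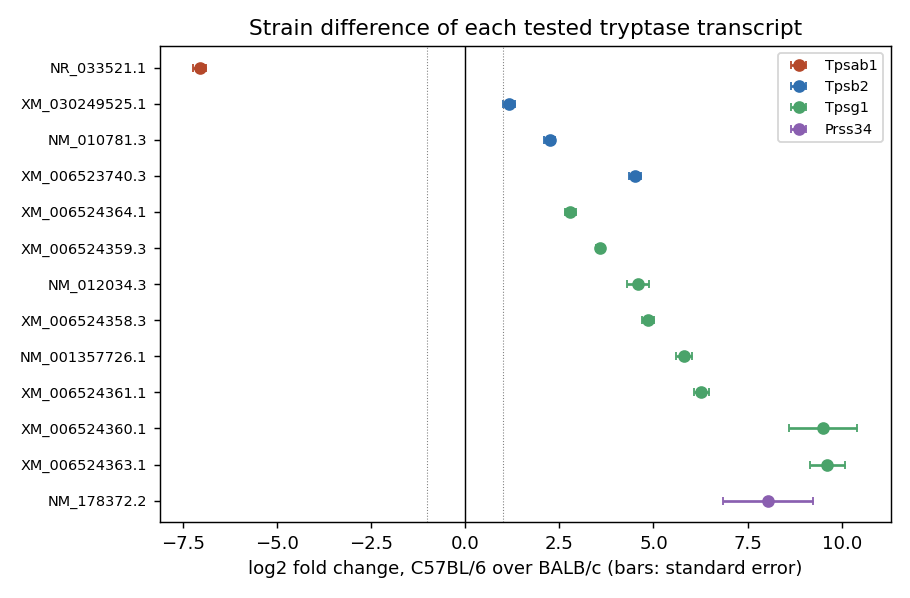
Log2 fold change from BALB/c to C57BL/6 for the 13 tested tryptase transcripts, with bars for the standard error, colours for the gene and dotted lines at a 2-fold change. The Tpsab1 record lies at -7.04, and the other 12 lie between 1.17 and 9.61.

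The other genes around the locus were compared in the same test. Of 36 annotated genes within 250 kb of the tryptase genes, 20 had a record in the tables and 7 were tested, and 1 was called, a share close to the 13.3% over all genes tested. None of the other 13 exceeded 5 reads in a library. The called gene was Cacna1h, a calcium channel subunit, which fell by 2.71 on the log2 scale, with 50, 22 and 41 reads in S9, S10 and S11 and 9, 5 and 2 reads in S12, S13 and S14. It overlaps the end of Tpsg1 on the opposite strand and changed in the opposite direction to Tpsg1. Whether the changes of Cacna1h and Tpsg1 are linked was not tested. The strand setting of the authors' read assignment is not given in the sources used here. For the other 6 the log2 fold change ran from -0.55 (Telo2) to 0.65 (Unkl). Another list held 9 trypsin-like protease genes (Prss21, Prss22, Prss27, Prss28, Prss29, Prss30, Prss32, Prss33 and Prss41). Only Prss28 and Prss29 of these lie within 250 kb of the tryptase genes. None of the 9 was tested and none exceeded 5 reads in a library. Prss28 and Prss29, which lie between Prss34 and Tpsab1, were thus at or near 0 in both strains.

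**Figure D5:**
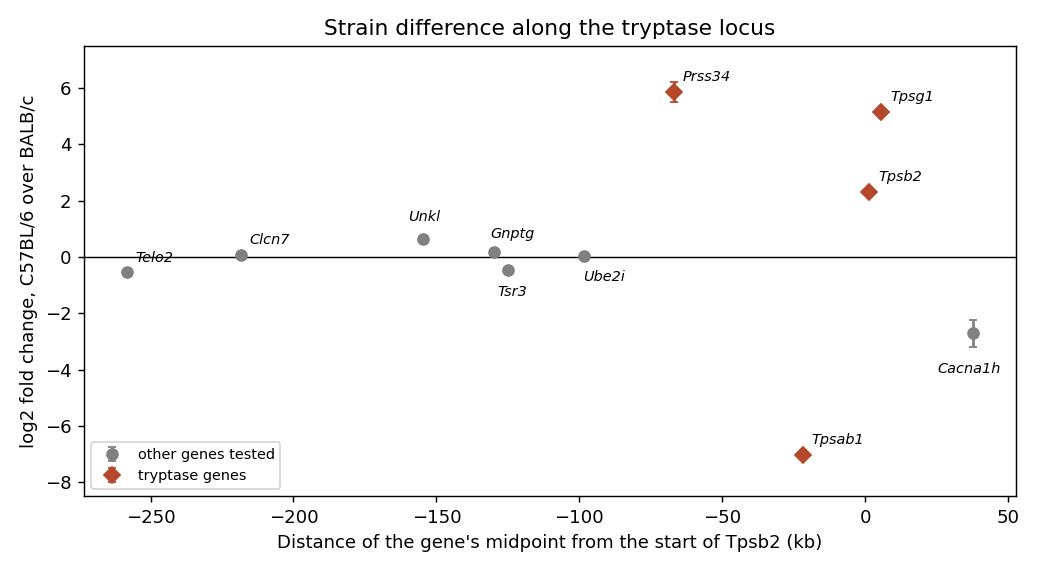
Log2 fold change from BALB/c to C57BL/6 for the tested genes around the locus, by the distance of their midpoint from the start of Tpsb2 in kb, with bars for the standard error. The 4 tryptase genes (diamonds) lie at -7.02, 2.32, 5.15 and 5.86, and of the other 7 genes (circles) only Cacna1h at -2.71 lies past a 2-fold change.

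Promoters are shown for the 2 genes that rose most and have an entry, Tpsg1 and Prss34, with RefSeq's 250 bases before and 50 after the start in GRCm38.p6 on the forward strand. Tpsg1 has 2 starts. Capitals mark the motifs searched on both strands, CATGTG and CACGTG (letters bound by MITF), GATAA (GATA factors) and TGTGGT (RUNX factors). None of these motifs overlaps another by its letters here. The Tpsb2 and Tpsab1 promoters have no entry.
Prss34, chr17:25298144-25298443: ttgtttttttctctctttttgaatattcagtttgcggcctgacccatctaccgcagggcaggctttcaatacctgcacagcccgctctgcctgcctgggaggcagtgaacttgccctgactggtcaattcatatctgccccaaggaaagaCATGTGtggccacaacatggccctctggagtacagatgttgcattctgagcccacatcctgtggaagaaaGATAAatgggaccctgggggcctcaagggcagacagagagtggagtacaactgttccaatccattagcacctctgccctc
Tpsg1 first start, chr17:25369023-25369322: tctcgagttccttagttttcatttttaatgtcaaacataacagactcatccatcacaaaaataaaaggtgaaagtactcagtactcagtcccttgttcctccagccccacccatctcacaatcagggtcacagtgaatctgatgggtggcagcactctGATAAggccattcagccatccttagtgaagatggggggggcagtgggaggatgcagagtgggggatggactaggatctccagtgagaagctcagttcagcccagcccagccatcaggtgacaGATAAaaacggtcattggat
Tpsg1 second start, chr17:25370303-25370602: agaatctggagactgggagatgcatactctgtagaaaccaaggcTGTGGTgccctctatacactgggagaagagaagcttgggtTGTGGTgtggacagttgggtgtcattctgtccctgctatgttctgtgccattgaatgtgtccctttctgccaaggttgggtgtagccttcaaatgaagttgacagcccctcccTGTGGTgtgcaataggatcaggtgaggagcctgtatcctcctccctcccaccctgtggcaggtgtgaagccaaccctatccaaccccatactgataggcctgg

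The Prss34 window held 1 CATGTG and 1 GATAA, the first Tpsg1 window 2 GATAA and the second 3 TGTGGT. Of 32851 promoter windows of this length, 14.2% held CATGTG, 7.15% CACGTG, 25.4% GATAA and 16.8% TGTGGT. No motif was common to all 3 windows.

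The regulators of tryptase genes differed less than the tryptases. Of 6 (Mitf, Gata1, Gata2, Runx1, Cbfb and Jun), all were tested and none was called, where 13.3% of all genes were called. Their median log2 fold change was 0.04, against -0.01 over all genes tested. Gata1, with the widest difference, had a log2 fold change of -0.45 ± 0.06 (SE, edgeR adjusted p = 0.000215), Runx1 0.40 ± 0.12 and Mitf -0.23 ± 0.04. These are differences between the strains below the 2-fold threshold, not shown absences of change.

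Of the 5 genes of tryptase maturation and storage, none was called by edgeR or by DESeq2, where edgeR called 13.3% of all genes, and their median log2 fold change was -0.55, against -0.01 over all genes tested. Srgn, the serglycin core that holds tryptases in granules, differed by 0.02 ± 0.04 on the log2 scale (SE). Ndst2, which sulfates its heparin chains, had a log2 fold change of -0.55 ± 0.06, and Ctsc, the cathepsin C that removes the propeptides of granule proteases, -0.61 ± 0.05. Ctsb stood at 0.62 ± 0.04 and Ctsl at -0.98 ± 0.25. The edgeR adjusted p was 3.75e-05 for Ndst2, 1.62e-05 for Ctsc, 1.69e-06 for Ctsb and 0.0100 for Ctsl. Ctsl rested on 57, 52 and 55 reads in S9, S10 and S11 and 18, 28 and 33 in S12, S13 and S14. As with the regulators, these are strain differences below the 2-fold threshold.

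Of the 4 genes of the tryptase target receptor and candidate inhibitors, 3 were tested and 1 was called, where 13.3% of all genes tested were called. Spint1, a Kunitz-type inhibitor of trypsin-like proteases, had 2985, 2406 and 3581 reads in S9, S10 and S11 and 14112, 12229 and 16786 in S12, S13 and S14. It rose by a log2 fold change of 2.34 ± 0.07 (SE, edgeR adjusted p = 1.20e-08), a size close to that of Tpsb2 at 2.32. Spint2 stood at 0.30 ± 0.13 and Slpi at 0.40 ± 0.27 on the same scale, and F2rl1, the receptor PAR2, had at most 1 read in a library. In the mast cell list 1 of 8 was called, a share near the 13.3% over all genes, namely Hdc, the enzyme of histamine synthesis, at a log2 fold change of 1.19.

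For each tryptase, the 3 genes with the most similar pattern were found by the root mean square difference of log2 CPM, centred on each gene's own mean, over the 6 libraries, among 8232 or 8233 genes with a mean of at least 10 CPM. Near Tpsb2 lay Hebp1 (difference 0.0521), Itgax and Tmtc2. Near Tpsg1 lay S100a6 (0.143), Ahcy and Scn11a. Near Tpsab1 lay Gm14279 (0.346), Gm11127 and Eif3j2, and near Prss34 Cd24a (0.332), Hcfc1r1 and Ccl6. The measure is given as a description, and over 2 strains it mainly ranks genes by the size of their strain difference.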

How the data were processed

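Strand-specific mRNA libraries of BMMCs were read from both ends. The authors checked reads with FastQC 0.11.5 and assigned them with Salmon 0.8.2, and deposited per transcript the estimated count of reads, the TPM, and the length and effective length in bases, an other kind of value. Their methods name Ensembl transcripts of GRCm39, while the deposited tables list RefSeq accessions. Accessions were paired with symbols without version through a RefSeq table of GRCm38.p6, used for names and promoters. This matched 106440 transcripts (82.1%), and those unmatched, 2.69% to 3.12% of reads, were left out. Other coordinates are of GRCm39 with GENCODE M39.

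Estimated counts were summed by gene, rounded and tested with edgeR 4.0.16 (quasi-likelihood, TMM, the filterByExpr minimum of 10 counts, Benjamini-Hochberg over all genes), and likewise by transcript. CPM use TMM-corrected library sizes. The biological coefficient of variation was 0.0665. Exact permutation tests used scipy 1.17.1. Simulated counts held 200 features changed 4-fold, with the same spread for every feature and no error of read assignment. Of these 200, edgeR found 198 among 12461 genes (0 false calls) and 200 among 31918 transcripts (1 false call). DESeq2 found 195 genes and 198 transcripts, and limma 173 genes and 151 transcripts. These counts hold for that setting and do not give error rates for the real libraries. Alternatives were DESeq2 1.42.0, log2(TPM + 1) and log2(TPM + 0.1) in limma 3.58.1, other scalings, filters and record classes, and each library left out. Named are the tryptases, all their transcripts, genes of the lists where a result turns on them, and for each tryptase the 3 genes nearest in pattern. The members and lists were chosen with earlier results of these data known.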

Additional observations from a re-analysis of the deposited data

How the results depend on the processing

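All 4 tryptase genes kept their direction and stayed called under every alternative that gave a value. Over these, the log2 fold change of Tpsab1 ran from -7.19 to -6.87, of Tpsb2 from 2.15 to 2.40 and of Tpsg1 from 4.94 to 5.58. That of Prss34 ran from 2.97 with limma on log2(TPM + 1), a scale that shrinks low genes, to 8.01 with curated records alone. Prss34 was not tested at a minimum of 10 counts in every library, Tpsab1 has no value with coding records alone, and no tryptases shared enough sequence to be summed. The log2 ratio of the summed level went from -0.30 to -0.13 in CPM and ran from -0.38 to -0.18 with a library left out, the latter without S9. With coding records alone it turned to 2.46, the difference in the Tpsb2 share from 62.1 to -18.8 points, and the difference in share was 18.7 points for Tpsg1 and 0.0790 points for Prss34, since Tpsab1 leaves the sum. As a share of reads the Prss34 difference was 0.0980 points. Under plain library sizes the median log2 fold change over all genes was -0.15, and calls went from 963 higher and 690 lower to 838 and 829. With them 1 gene of maturation and storage was called, and 1 basophil marker in place of 2, without Mcpt8. Genes called numbered 1653, and 1017 with 10 counts in every library, 752 with limma on log2(TPM + 1) and 980 on log2(TPM + 0.1). Transcripts called numbered 2016, 3427 with DESeq2, and 1316, 1326 and 1322 without S12, S13 or S14. No paired analysis was possible because the strains share no library numbers. With limma on log2(TPM + 1) the log2 fold changes of XM_006524358.3 and XM_006524361.1 were 3.83 and 5.63, against 4.86 and 6.27 with edgeR. Depth limits Prss34 and the rarest Tpsg1 records in BALB/c, and read assignment between transcripts has an error that was not used here.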
